A study of Homo sapiens with 9 samples.

Results

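The comparison described here sets 2 short hairpin RNAs against LSD1 directly against each other, hairpin ShLSD1 #1 (replicates 4 to 6) minus hairpin ShLSD1 #2 (replicates 7 to 9), in every gene that the array names. Members were all transcript clusters with exactly 1 gene symbol in the array's probe annotation, which gave 17709 of 21448 clusters, or 17687 distinct genes. Every array of the study, 9 in all, was hybridized with RNA of ACC-MESO-1, a long-established cell line from malignant mesothelioma of the pleura, the membrane around the lungs. The third group, a control shRNA (replicates 1 to 3), had no LSD1 hairpin and serves here as the point from which each hairpin moved. The groups differ by their shRNA alone per the labels, which do not say how the hairpins were delivered, for how long, or whether the 3 arrays of a group came from separate cultures. The p-values therefore measure the spread between these arrays, which may be technical. All values are log2 signals, a difference of 1 is 2-fold, and a positive difference means higher with hairpin #1.

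LSD1, encoded by KDM1A, removes methyl groups from histone H3 within the CoREST and NuRD complexes and mostly represses the genes it binds. Cells that lose it can take up signs of an interferon response or change their differentiation state, depending on the cell type. A short hairpin is processed into a small RNA that guides the silencing complex to a matching transcript, and hairpins of different sequence are used side by side because each can also touch other transcripts. The LSD1 transcript itself was not analysed here, so the depth of the knockdown by each hairpin is unknown in these values, and the sequences of the hairpins are not stated in the labels used here.

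The mesothelial label was borne out in part. Of 17 mesothelial marker genes on the array, 6 lay above the negative controls on all 3 arrays of at least 1 hairpin, namely mesothelin (MSLN), WT1, UPK3B and the keratins KRT7, KRT8 and KRT18. Calretinin (CALB2) was not among them. Of 14 leukocyte markers, 2 did so, CD68 and CSF1R, and of 11 endothelial markers 0 did. The median difference between the hairpins was 0.01 over the mesothelial list. In RNA from whole cultures, fewer cells that express a gene and less RNA per cell cannot be told apart.

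No gene separated the hairpins by the chosen test. With limma fitted across all 21448 clusters and Benjamini-Hochberg adjustment, 0 clusters (0%) passed an adjusted p of 0.05, and the smallest adjusted p was 0.446. At an unadjusted p under 0.05 there were 1687 clusters (7.87%), of which 875 (4.08%) were higher with hairpin #1 and 812 (3.79%) with hairpin #2. When limma's prior variance was allowed to follow the signal level and to resist outlying genes (a trended robust prior), 42 clusters (0.196%) passed, 33 higher with hairpin #1 (0.154%) and 9 higher with hairpin #2 (0.0420%). In simulated data of this layout, the fixed test called 69% of clusters changed by 1 and 3% of those changed by 0.5. Most differences below are of the smaller size, which 3 arrays against 3 rarely call.

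The measured differences were small. Among the 8194 named genes (46.3%) above the negative controls, the absolute difference had a median of 0.12 and reached at most 0.89. The 95% interval of a gene's difference had a median half-width of 0.30, and for 99.2% of these genes the whole interval lay within 1. Because few genes can pass, genes are also described by whether the 3 arrays of one hairpin all lie above the 3 of the other. That held for 1181 of 17687 named genes (6.68%) in favour of hairpin #1 and for 1218 (6.89%) in favour of hairpin #2. With 3 arrays a side, some genes stand apart in this way without any true difference, so for a single gene it is weak evidence. Over all clusters, named or not, the shares were 6.57% and 6.78%, and among named genes above the negative controls they were 9.10% and 10.3%. These shares are the background against which each group of genes below is read, and none of the group counts carries a test. Genes named for a large hairpin difference were selected on the hairpin arrays. Their limma p-values against control use those same arrays and are descriptions only.

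Among immune genes, the interferon response leaned to hairpin #1. Interferon-stimulated genes encode antiviral proteins and sensors of foreign RNA. All 42 listed genes on the array fell with hairpin #2 against control, and 41 fell with hairpin #1 (limma, adjusted p under 0.05), with median changes of -2.40 and -2.20. Over all clusters tested, 6.63% fell with hairpin #2 and 7.94% with hairpin #1. Between the hairpins, 14 of the 42 were higher with hairpin #1 on non-overlapping arrays (33.3%) and 0 were higher with hairpin #2. The median difference was 0.20. Thus the list was reduced with both hairpins and the residual signal was higher with hairpin #1. The 2 comparisons with control share the 3 control arrays.

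The mean of the list was 12.07, 12.05 and 12.10 on the control arrays. It was 9.52, 9.54 and 9.48 with hairpin #1 and 9.27 to 9.40 with hairpin #2. The hairpin arrays did not overlap, and the gap between them was small beside the distance of either from control.

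IFI44, an interferon-induced protein, read 10.07, 10.07 and 10.09 with hairpin #1 and 9.58, 9.45 and 9.53 with hairpin #2. The difference was 0.56 (SE 0.11), with an adjusted p of 0.479 in limma and 0.0472 with the trended robust prior. Control arrays lay at 11.94 to 12.15, above both.
SAMD9L, an antiviral factor that restrains translation, read 10.59, 10.74 and 10.82 with hairpin #1 against 10.11, 9.99 and 10.26 with hairpin #2, a difference of 0.60 (SE 0.13). It passed only with the trended robust prior of limma (adjusted p = 0.0472). SAMD9, its neighbour and relative, differed by 0.51, from 11.28, 11.51 and 11.08 to 10.89, 10.61 and 10.83. The groups of arrays did not overlap for either gene.

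ISG20, an exonuclease that degrades RNA, read 7.92, 7.50 and 7.50 with hairpin #1 and 7.06, 7.10 and 7.14 with hairpin #2. Only 1 of the 3 hairpin #2 arrays lay above its negative controls, so the difference of 0.54 has its lower side near background. OAS1, an enzyme that turns on RNase L through a nucleotide messenger, was under the negative controls on all 6 hairpin arrays, at 6.74, 7.0 and 7.07 against 6.68, 6.38 and 6.73, while the control arrays read 13.04 to 13.11. Its difference of 0.34 is therefore one between values near background. MX1, a GTPase that blocks viral replication, overlapped between the hairpins, at 7.62, 7.50 and 7.61 against 7.17, 7.54 and 7.67, and its difference of 0.12 turned to -0.13 with the spike-in signal as a covariate and to -0.03 without replicate 7.

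**Figure D1:**
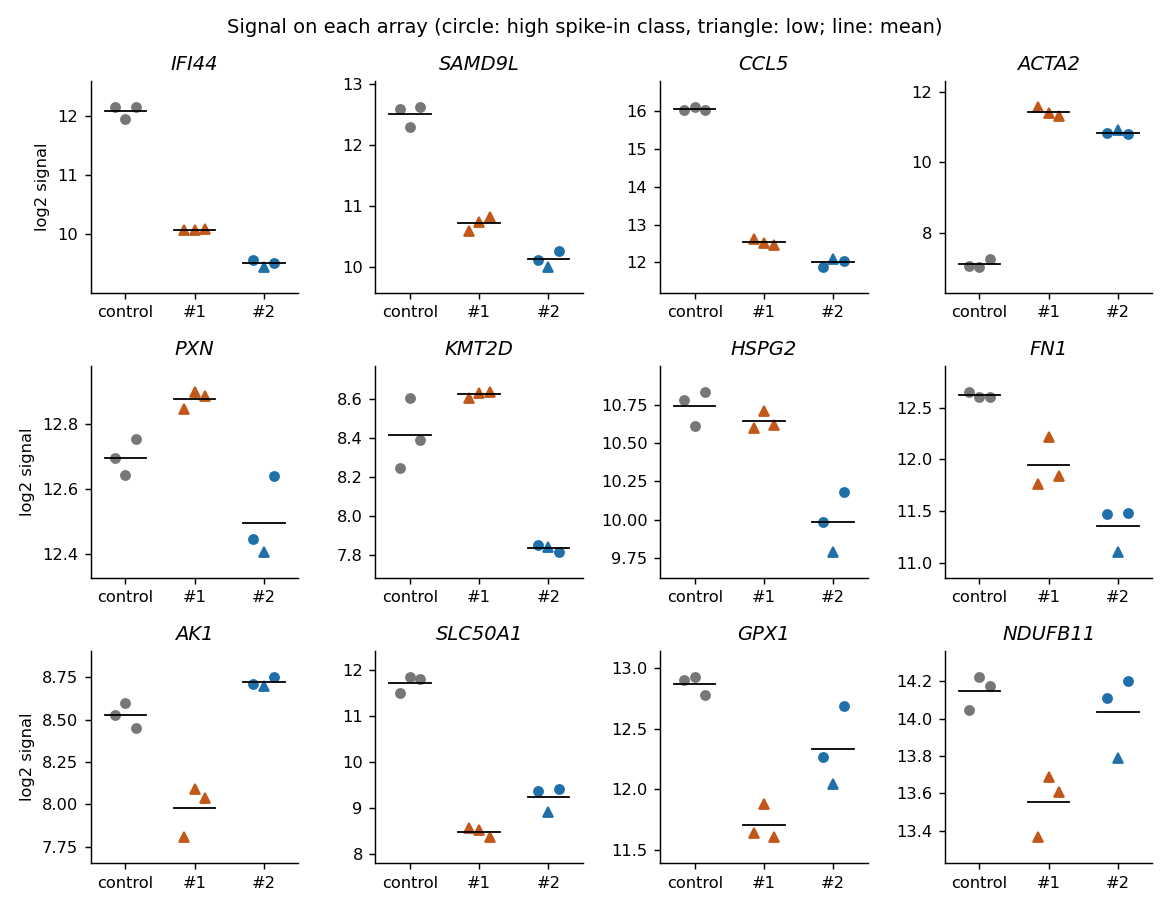
Log2 signal (y axis, scaled separately for each gene) of 12 named genes on each array of the control, hairpin #1 and hairpin #2 groups (x axis). Points are arrays, with circles for the high and triangles for the low class of hybridization spike-in signal, and lines are means of 3 arrays; IFI44 and CCL5 lie far below control with both hairpins, whereas KMT2D and AK1 lie on opposite sides of control.

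Sensors of nucleic acids leaned the same way. Of 23 genes for cytosolic nucleic acid sensing and RNA interference, 5 were higher with hairpin #1 (21.7%) and 1 with hairpin #2 (4.35%), with a median of 0.15. This list is not separate from the interferon list, since IFIH1 was counted in both. Its mean overlapped between the hairpins, at 8.88, 9.02 and 8.93 against 8.78, 8.79 and 8.90. IFI16, a sensor of DNA, read 11.79, 12.21 and 11.98 against 11.25, 11.59 and 11.45, a difference of 0.57 that passed with the trended robust prior of limma (adjusted p = 0.0472). IFIH1, the sensor MDA5 for long double-stranded RNA, read 9.99, 9.95 and 9.93 against 9.45, 9.49 and 9.48. RIGI, the sensor for short RNA ends, differed by only 0.15, and DROSHA, the nuclease that starts microRNA processing, by 0.30. DROSHA was above control with hairpin #1, by 0.64 (adjusted p = 0.0105), whereas IFI16, IFIH1 and RIGI were below control with both hairpins. Without replicate 7 the median of the list was 0.0453.

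Chemokines and cytokines were mostly undetected: 20 of 31 lay below the negative controls on every array. CCL5, a chemokine that attracts T cells, was the member with the lowest adjusted p (0.0224, limma with the trended robust prior). It read 12.62, 12.50 and 12.47 with hairpin #1 and 11.88, 12.10 and 12.04 with hairpin #2, against 16.04 to 16.13 in control. CSF1, the growth factor of macrophages, read 10.32, 9.83 and 10.12 against 9.76, 9.44 and 9.52. Of the 31, 5 were higher with hairpin #1 and 1 with hairpin #2, but the 9 members above the negative controls had a median of -0.01, so the lean was that of a few genes and not of the list.

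The promoters of the interferon genes were searched for a motif known from this response. The interferon-stimulated response element was searched as GAAANNGAAA on either strand, in the stretch from 250 bases before to 50 bases after each RefSeq gene start. It was present in 3.65% of all 27305 promoters and in 66.7% of the 33 interferon list promoters found. Among the members higher with hairpin #1 it was present in 8 of 13 (61.5%), and among the other members in 14 of 20 (70.0%). The stretches below come from RefSeq (GRCh38.p14), are written on the gene's own strand, and show the match in capitals for 4 of the genes described above.
IFI44: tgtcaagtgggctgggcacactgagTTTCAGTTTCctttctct
ISG20: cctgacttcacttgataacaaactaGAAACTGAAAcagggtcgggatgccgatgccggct
SAMD9: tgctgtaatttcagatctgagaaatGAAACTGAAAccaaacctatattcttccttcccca
IFIH1: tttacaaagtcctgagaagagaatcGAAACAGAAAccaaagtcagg
They lie at chr1:78649746-78649788 (plus strand), chr15:88638922-88638981 (plus), chr7:93118081-93118140 (minus) and chr2:162318685-162318730 (minus). The match ends 8, 59, 126 and 11 bases before the start site, respectively. A match is a description of the letters.

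The contractile and actin cytoskeleton list stood out on the side of hairpin #1 and moved the other way from control. Its genes encode actin, myosin light and heavy chains and the focal adhesion proteins that anchor them. Of 36 genes on the array, 12 were higher with hairpin #1 (33.3%) and 1, SMTN, with hairpin #2 (2.78%), with a median of 0.14. Against control, 14 rose with hairpin #1 and 12 with hairpin #2 (limma, adjusted p under 0.05), where 7.85% and 6.56% of all clusters rose. The mean of the list was 11.98, 12.02 and 11.98 with hairpin #1, 11.92, 11.81 and 11.90 with hairpin #2 and 11.30, 11.35 and 11.37 in control.

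ACTA2, smooth muscle actin, read 11.58, 11.40 and 11.32 with hairpin #1 and 10.82, 10.91 and 10.80 with hairpin #2. The difference was 0.59 (SE 0.12), with an adjusted p of 0.479 in limma. No control array rose above its negative controls for it, at 7.03 to 7.25. TAGLN (transgelin), an actin-binding protein of smooth muscle, was likewise under the negative controls on every control array, at 4.82 to 6.24. It read 11.26, 11.78 and 11.72 with hairpin #1 and 11.07, 11.01 and 11.44 with hairpin #2, so the hairpins overlapped for it.

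SRF, the transcription factor of many actin genes, read 9.13, 9.33 and 8.95 with hairpin #1 and 8.79, 8.36 and 8.78 with hairpin #2. PXN, the focal adhesion scaffold paxillin, read 12.85, 12.90 and 12.89 against 12.44, 12.40 and 12.64, with control at 12.64 to 12.76 between them. MYH9, the heavy chain of non-muscle myosin, read 14.10, 14.08 and 14.03 against 13.80, 13.57 and 13.86. MYL9, a light chain of the same motors, passed with the trended robust prior of limma at a difference of 0.25 (adjusted p = 0.0483). All 4 were higher with hairpin #1 on every array.

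Of 49 collagens and matrix glycoproteins, 8 were higher with hairpin #1 (16.3%) and 0 with hairpin #2, with a median of 0.01. This median includes 22 members that stayed under the negative controls on all 9 arrays, and for the 23 above them it was 0.13. FN1, fibronectin, read 11.76, 12.22 and 11.84 with hairpin #1 and 11.47, 11.10 and 11.48 with hairpin #2. HSPG2, the basement membrane proteoglycan perlecan, read 10.60, 10.71 and 10.61 against 9.98, 9.79 and 10.18, a difference of 0.66 (SE 0.13). Against control, FN1 fell by 0.68 with hairpin #1 (adjusted p = 0.0154) and fell by 1.27 with hairpin #2 (adjusted p = 6.2e-04). HSPG2 fell by 0.76 with hairpin #2 (adjusted p = 0.00428), and its difference from control with hairpin #1 was -0.10 (adjusted p = 0.665). For HSPG2 these limma p-values use the arrays by which it was picked.

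The factors that define the mesenchymal state gave no common lean. Of 23 such genes, 2 were higher with each hairpin, with a median of 0.01. VIM, the intermediate filament vimentin, differed by 0.05 (95% interval -0.16 to 0.27). ZEB1 and SNAI2, repressors of the epithelial programme, differed by 0.06 (-0.20 to 0.31) and 0.03 (-0.24 to 0.30), with values that turned negative under some settings. CDH1, E-cadherin, was below the negative controls on all 9 arrays. CDH2, N-cadherin, read 11.55, 12.02 and 11.75 with hairpin #1 and up to 12.18 with hairpin #2, where replicate 8 fell just under the highest hairpin #1 array, at a difference of -0.35.

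LSD1's own complexes gave no common lean. Of 33 genes for LSD1, CoREST and histone deacetylase complexes, 3 were higher with hairpin #1 (9.09%) and 1 with hairpin #2 (3.03%), with a median of 0.02. RCOR1, the CoREST scaffold that binds LSD1, read 7.40, 7.73 and 7.86 against 7.61, 7.97 and 8.02, and overlapped. A list of other chromatin enzymes leaned to hairpin #1. Of 47 histone methyltransferases and JmjC demethylases, 8 were higher with hairpin #1 and 1 with hairpin #2 (2.13%), with a median of 0.08.

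KMT2D, which methylates histone H3 at enhancers, had the largest difference of the list. It read 8.60, 8.63 and 8.64 with hairpin #1 and 7.85, 7.84 and 7.81 with hairpin #2, with control at 8.25 to 8.60. The difference was 0.79 (SE 0.12, 95% interval 0.53 to 1.05), at an adjusted p of 0.446 in limma and 0.0472 with the trended robust prior. The arrays of each hairpin lay close together. Hairpin #2 was below control by 0.58 (adjusted p = 0.0099) while hairpin #1 differed from control by 0.21 (adjusted p = 0.273). These limma p-values use the arrays by which KMT2D was picked. SETD1A, a methyltransferase that acts at promoters, differed by 0.53 and passed with the trended robust prior of limma (adjusted p = 0.0472), from 10.85, 10.96 and 10.85 to 10.33, 10.40 and 10.34.

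On the side of hairpin #2 stood the genes of mitochondria. The respiratory chain and ATP synthase, which make ATP from the oxidation of nutrients, had 18 of 69 members higher with hairpin #2 (26.1%) and 2 higher with hairpin #1 (2.90%), with a median of -0.13. The mitochondrial ribosomal proteins, which translate the few genes of the mitochondrial genome, had 17 of 73 higher with hairpin #2 (23.3%) and 3 with hairpin #1 (4.11%), at a median of -0.13 (-0.0849 without replicate 9). The tricarboxylic acid cycle and fatty acid oxidation list had 10 of 34 higher with hairpin #2 (29.4%) and 1, IDH2, with hairpin #1. Against control, 19 of the 69 respiratory chain genes fell with hairpin #1 and 7 with hairpin #2 (limma, adjusted p under 0.05), where 7.94% and 6.63% of all clusters fell. The difference between these counts was not itself tested.

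The respiratory chain list had a mean of 12.75, 12.81 and 12.72 with hairpin #1, 12.90, 12.85 and 12.97 with hairpin #2 and 12.99, 13.01 and 13.01 in control. NDUFB11, a subunit of complex I, read 13.36, 13.69 and 13.61 with hairpin #1 and 14.11, 13.79 and 14.20 with hairpin #2, a difference of -0.48 (SE 0.14). COX5B, a subunit of complex IV, read 12.04, 12.15 and 11.95 against 12.37, 12.29 and 12.53. Hairpin #2 arrays thus lay between control and hairpin #1 for the list mean.
ATP5PO, in the stalk of ATP synthase, differed by -0.27 and NDUFAB1, the mitochondrial acyl carrier protein, by -0.32. Among ribosomal proteins of mitochondria, MRPL54, MRPL16, MRPS24 and MRPL32 differed by -0.49, -0.40, -0.39 and -0.38. UQCC2, an assembly factor of complex III, was one of the 12 leading genes on this side, at 9.08, 9.51 and 9.43 with hairpin #1 against 10.15, 9.75 and 10.19 with hairpin #2.

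**Figure D2:**
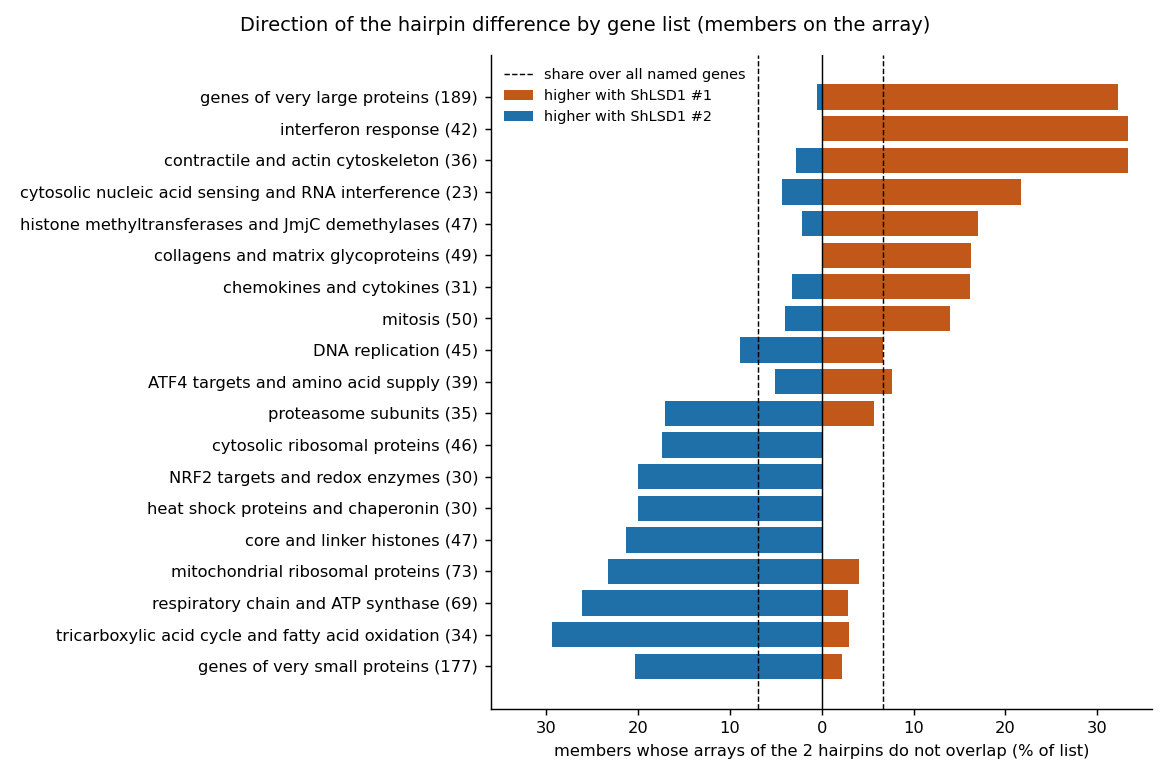
Share of each list's members on the array (x axis, percent; list size in brackets) whose 3 arrays of one hairpin all lie above the 3 of the other, with hairpin #1 to the right and hairpin #2 to the left. Dashed lines mark the same shares over all named genes, 6.68% and 6.89%. Among named genes above the negative controls the shares were higher, 9.10% and 10.3%. Interferon response reaches 33.3% on the right. The respiratory chain, with 68 of 69 members above the negative controls, reaches 26.1% on the left.

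Redox enzymes, chaperones and the protein turnover machinery also leaned to hairpin #2 by counts of genes apart. Their list means, however, overlapped between the arrays of the hairpins. Of 30 NRF2 targets and redox enzymes, 6 were higher with hairpin #2 and 0 with hairpin #1. GPX1, the glutathione peroxidase that removes hydrogen peroxide, read 11.64, 11.87 and 11.60 against 12.26, 12.04 and 12.69, a difference of -0.63 (SE 0.17), with control at 12.78 to 12.93. GSTO1, a glutathione transferase, differed by -0.47 and fell by 1.11 against control with hairpin #1 (adjusted p = 4.4e-04) and fell by 0.65 with hairpin #2 (adjusted p = 0.00953). SLC7A11, the cystine importer that feeds glutathione synthesis, differed by -0.17, and GSTP1 by -0.20.

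Heat shock proteins and the chaperonin, which fold proteins, had 6 of 30 members higher with hairpin #2 and 0 with hairpin #1. These differences were narrow: -0.23 for the co-chaperone CHORDC1, -0.13 for the chaperonin subunit CCT7, -0.12 for HSPA2 and -0.11 for HSPB1. Cytosolic ribosomal proteins had 8 of 46 higher with hairpin #2 (17.4%) and 0 with hairpin #1, and proteasome subunits 6 of 35 (17.1%) and 2 (5.71%). The ribosomal list means overlapped too. Among named genes above the negative controls the share toward hairpin #2 was 10.3%. In limma, unadjusted p was under 0.05 for 4 of 30 NRF2 and 1 of 30 heat shock genes. It was so for 1 of 46 ribosomal and 0 of 35 proteasome genes, and for 7.87% of all clusters.

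Core and linker histones, which package DNA, had 10 of 47 members higher with hairpin #2 (21.3%) and 0 with hairpin #1, at a median of -0.14. H4C9 read 10.38, 10.72 and 10.24 with hairpin #1 and 10.85, 10.75 and 10.96 with hairpin #2. H2AC4, H2AC6 and H3C1 differed by -0.38, -0.38 and -0.30. Histone genes are near-identical copies of each other, so their probes may read more than 1 gene. The value depended on the arrays compared: against replicate 8 alone its median was -0.01, against replicates 7 and 9 it was -0.22, and without replicate 9 it was -0.0873.

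Proliferation gave no common lean. DNA replication had 3 of 45 genes higher with hairpin #1 (6.67%) and 4 with hairpin #2 (8.89%), close to the background. Mitosis had 7 of 50 and 2 of 50, at a median of 0.00. MKI67, the proliferation antigen Ki-67, read 12.60, 12.56 and 12.38 with hairpin #1 and 12.22, 12.14 and 12.20 with hairpin #2, and it rose against control with hairpin #1 by 0.72 (adjusted p = 0.00281). The ATF4 targets of amino acid supply, had 3 and 2 members apart. Against control, 24 of these 39 genes fell with hairpin #1 and 23 with hairpin #2 (limma, adjusted p under 0.05), where 7.94% and 6.63% of all clusters fell. Among them CHAC1, which degrades glutathione, read 10.88, 10.58 and 10.53 against 9.92, 9.86 and 10.21, with control at 12.60 to 12.91. Olfactory receptors, 348 of 349 of which stayed under the negative controls on every array, had 19 (5.44%) and 10 (2.87%) members apart. Both lay under the shares over all named genes, 6.68% and 6.89%. Those shares include detected genes, for which they were higher, 9.10% and 10.3%, so they are not a matched background for undetected genes.

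Some of the highest or lowest medians belonged to lists that were mostly undetected or too mixed to describe as a lean. Late cornified envelope genes (median 0.17) had 2 of 18 members above the negative controls and microRNA genes (median -0.15) had 2 of 15. ERK pathway feedback (median 0.16) had 3 members apart in each direction, one of them IER3 at a difference of 0.08.

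The 12 largest differences in each direction, taken among named genes above the negative controls with no overlap, named different functions. TANC2, a scaffold of synapses, had the largest difference, 0.89 (SE 0.19), from 9.93, 9.72 and 9.91 with hairpin #1 to 9.07, 8.60 and 9.20 with hairpin #2. Hairpin #1 was above control by 0.91 (adjusted p = 0.0115) and hairpin #2 differed from it by 0.02. Since TANC2 was picked for its hairpin difference, this limma p-value uses arrays that selected it. MICALL1, a regulator of recycling endosomes, read 9.42, 9.42 and 9.48 against 8.89, 8.40 and 8.89. These leaders on the side of hairpin #1 also included SYNE2 (0.69), a nuclear envelope protein that ties the nucleus to actin, and NAV1 (0.66), a microtubule-associated protein. ALOX5AP (0.67), needed for leukotriene synthesis, KIAA1217 (0.66), EXOSC6 (0.65), a subunit of the RNA exosome, BHLHE41 (0.64), a repressor of the circadian clock, and BRWD3 (0.64) completed them with CHAC1, KMT2D and HSPG2. For SYNE2 and KIAA1217, 2 of the 3 hairpin #2 arrays were above the negative controls.

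On the side of hairpin #2 the leaders were of mixed function, several of them mitochondrial. AK1, an adenylate kinase that balances adenine nucleotides, read 7.81, 8.09 and 8.04 with hairpin #1 and 8.71, 8.70 and 8.75 with hairpin #2, a difference of -0.74 (SE 0.11), with an adjusted p of 0.446 in limma and 0.0472 with the trended robust prior. It fell by 0.55 against control with hairpin #1 (adjusted p = 0.0102) and differed by 0.20 with hairpin #2 (adjusted p = 0.329). These limma p-values, too, use the arrays by which AK1 was picked. CNIH2 read 7.0, 6.62 and 6.31 against 7.40, 7.29 and 7.38. It lay below the negative controls on all 3 control arrays and on 2 of the 3 hairpin #1 arrays, so the lower side of its difference is near background. The mitochondrial pyrophosphatase PPA2 (-0.63), the mitochondrial sodium-calcium exchanger SLC8B1 (-0.63), the folate enzyme MTHFS (-0.64) and the zinc finger genes ZNF20, ZNF449 and ZNF404 were the others, beside GPX1, UQCC2, DPM3 and SLC50A1. The zinc finger genes entered through hairpin #2, where all 3 arrays were above the negative controls. With hairpin #1 this held for 1 array of ZNF20 and for 2 of ZNF449, ZNF404 and PPA2, so these differences too have a lower side near background. PPA2 had an unadjusted p of 0.0301 and a spread of 6.38 to 7.34 among the hairpin #1 arrays.

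DPM3 and SLC50A1 are neighbours. In the order of RefSeq genes, counting those above the negative controls, SLC50A1, a sugar transporter, DPM3, a subunit of the synthase of dolichol phosphate mannose, and KRTCAP2, a subunit of the oligosaccharyltransferase, follow each other. SLC50A1 read 8.57, 8.52 and 8.37 with hairpin #1 and 9.38, 8.93 and 9.41 with hairpin #2, against 11.50 to 11.84 in control. DPM3 read 8.32, 8.63 and 8.03 against 8.92, 8.89 and 9.45. KRTCAP2 read 13.43, 13.42 and 13.47 against 13.90, 13.69 and 13.85.
All 3 were higher with hairpin #2 without overlap, with differences of -0.75, -0.76 and -0.37, and all 3 fell against control with hairpin #1. Their differences from control were -3.23, -1.67 and -0.72 with hairpin #1 and -2.48, -0.91 and -0.35 with hairpin #2. The limma adjusted p-values with hairpin #2 were 1.4e-05, 0.0130 and 0.0620. On one side the next such genes, MUC1 and THBS3, differed by 0.47 and 0.33 in the other direction, and the hairpins overlapped for THBS3. On the other side ADAM15, ZBTB7B and FLAD1 differed by -0.19, 0.19 and -0.37, and of these FLAD1 alone was apart. Across the genome, 11 runs of at least 3 adjacent genes were higher with hairpin #2 without overlap and 10 with hairpin #1. Some runs count a read-through gene, a transcript joined across neighbours, beside its own parent gene. Examples were CHURC1-FNTB with CHURC1, GPR75-ASB3 with ASB3 and BLOC1S1-RDH5 with BLOC1S1, which are not separate neighbours.

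Of the 42 clusters that limma called with the trended robust prior, 35 carried a symbol. Besides those above, the genes higher with hairpin #1 included the transcription factors NFIC (0.52) and NFIX (0.50), the kinase HIPK2 (0.55), the splicing proteins HNRNPM (0.31) and SNRNP200 (0.50), the motor subunit DYNC1H1 (0.55), the ubiquitin ligase UBR4 (0.61), the kinase inhibitor CAMK2N1 (0.63) and the surface peptidase DPP4 (0.44). Higher with hairpin #2 were ANKRD37 (-0.58), a gene induced by low oxygen, NEK7 (-0.53), a mitotic kinase that also serves the inflammasome, DCTPP1 (-0.44), which clears modified nucleotides, and LAMTOR5 (-0.42), a subunit of the lysosomal scaffold for mTORC1. UBR4 read 11.54, 11.76 and 11.65 against 11.13, 10.81 and 11.17. ANKRD37 read 11.96, 12.04 and 11.78 against 12.42, 12.55 and 12.55.

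Several leaders with hairpin #1 encode very large proteins, and several with hairpin #2 very small ones. Lists of genes known for very large and for very small proteins were therefore gathered from general knowledge after the leading genes had been seen; protein or transcript length was not measured here. Of 189 genes of very large proteins on the array, 61 were higher with hairpin #1 (32.3%) and 1, GOLGA4, with hairpin #2 (0.529%), at a median of 0.22. Of 177 genes of very small proteins, 36 were higher with hairpin #2 (20.3%) and 4 with hairpin #1 (2.26%), at a median of -0.12. The lists cross the functions described above. They hold KMT2D, SYNE2, HSPG2, FN1, MYH9, MKI67, UBR4, DYNC1H1 and SNRNP200 on one side and DPM3, UQCC2, KRTCAP2 and LAMTOR5 on the other.

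The counts were also taken without part of the genes that had been seen first. The leading genes of the naming rule were left out, but smaller trended robust calls such as DYNC1H1 and SNRNP200 stayed in. Without those leading genes, 52 of 180 genes of very large proteins were higher with hairpin #1 and 1 with hairpin #2. Without the genes of every other list, these were 46 of 141 and 0, and for very small proteins 30 of 155 were higher with hairpin #2 and 4 with hairpin #1.

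**Figure D3:**
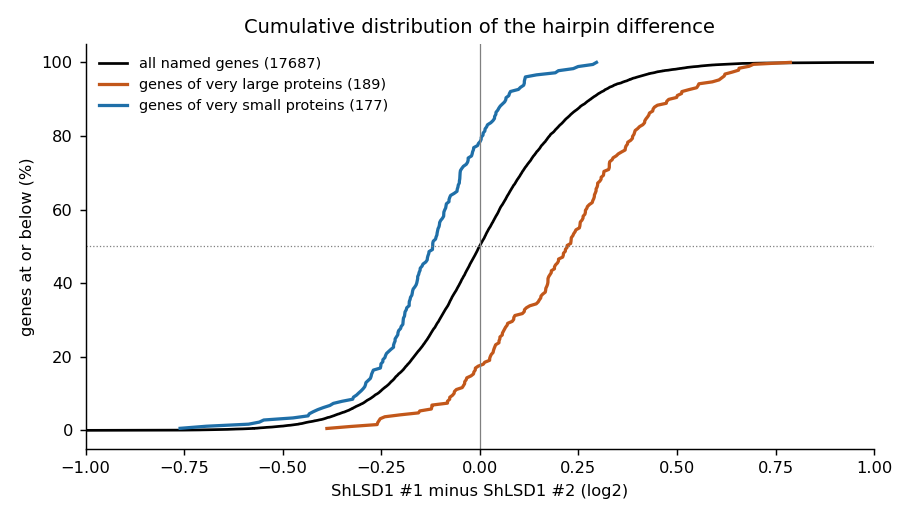
Cumulative share of genes (y axis, percent) at or below each difference, hairpin #1 minus hairpin #2 (x axis, log2), for all 17687 named genes and for the 189 genes of very large and 177 of very small proteins. The 3 curves cross 50% at 0.00, 0.22 and -0.12.

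The function lists were also counted without the genes of the size lists. The interferon list held none of them. The contractile list kept 10 genes apart toward hairpin #1 and 1 toward hairpin #2 among 31, and the histone methyltransferase list 5 and 1 among 41. The matrix list went from 8 genes apart to 3 among 41, each toward hairpin #1. The respiratory chain list held none, and the mitochondrial ribosomal list kept 17 and 3 among 72. Small size is, however, common among respiratory chain and ribosomal proteins that the size list did not repeat.

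Relative to control, the list means lay further away with hairpin #1 than with hairpin #2, although single genes moved with either. The mean of the large list was 8.04, 8.05 and 8.07 in control, 8.23, 8.24 and 8.24 with hairpin #1 and 8.04, 8.0 and 8.04 with hairpin #2. The mean of the small list was 11.93, 11.95 and 11.96 in control, 11.79, 11.85 and 11.75 with hairpin #1 and 11.90, 11.89 and 11.98 with hairpin #2. The large mean minus the small mean was -3.89 to -3.90 in control, -3.51 to -3.61 with hairpin #1 and -3.87 to -3.93 with hairpin #2. Gene by gene, 32 of the 189 large-protein genes rose and 6 fell with hairpin #1 (limma, adjusted p under 0.05). With hairpin #2, 11 rose and 21 fell. Over all clusters, 7.85% rose and 7.94% fell with hairpin #1, and 6.56% rose and 6.63% fell with hairpin #2.

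**Figure D4:**
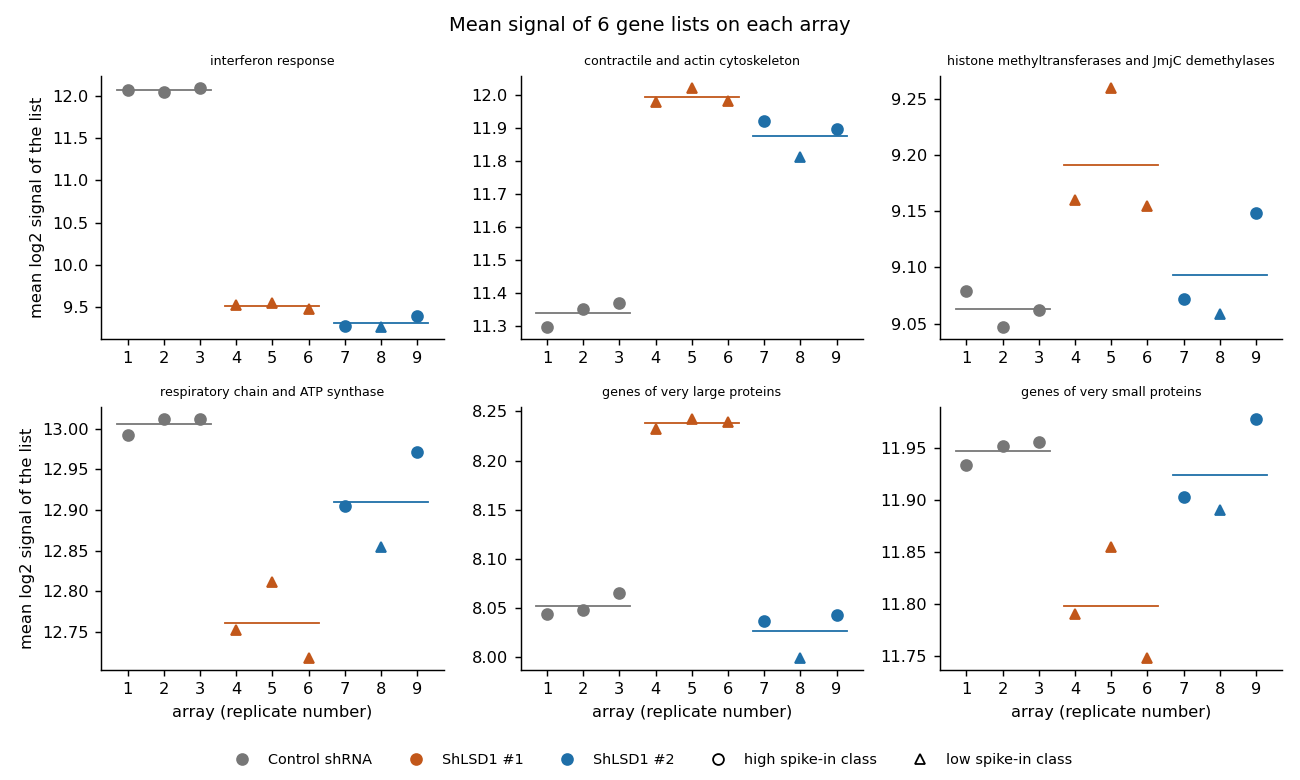
Mean log2 signal (y axis, scaled separately for each list) of 6 gene lists on each of the 9 arrays (x axis, replicate number), with circles for the high and triangles for the low class of spike-in signal and lines for group means. Genes of very large proteins lie at 8.23 to 8.24 with hairpin #1 and at 8.0 to 8.07 on the other 6 arrays; the interferon list lies near 12.07 in control and below 9.55 with either hairpin.

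Array quality differed along nearly the same divide, and its part in the results was not tested beyond the values given here. The hybridization spike-ins, control sequences added to each labelled sample at a set amount, had a mean signal of 11.30 to 11.38 on the control arrays, 10.80 to 10.84 with hairpin #1, and 11.33, 10.93 and 11.18 on replicates 7, 8 and 9. All 3 arrays of hairpin #1 and replicate 8 of hairpin #2 thus form a class of low spike-in signal, and spike-in class and hairpin are nearly the same division. The spike-ins added before labelling split alike, at 7.34 to 7.55 in the low class and 7.68 to 7.96 in the high class. The share of clusters above the negative controls ran from 42.0% to 46.2% and did not follow the hairpins, with 46.2% on both replicate 4 and replicate 9. The root mean square distance between 2 arrays was 0.344 to 0.397 within a hairpin and 0.341 to 0.439 between hairpins, so pairs of the same and of different hairpins overlapped. Both the closest pair, replicates 5 and 9, and the farthest, 6 and 9, were of different hairpins. Replicates 5 and 9 also had the highest means of the positive control probe sets, 12.58 and 12.55. The other arrays read 12.45 to 12.50. This likeness crosses the hairpins, and its part in the results was not tested.

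Replicate 8 gives the comparison within the low class. Against it alone, the median difference of hairpin #1 was 0.23 for the interferon list, 0.16 for the contractile list, 0.20 for nucleic acid sensing and 0.04 for the histone methyltransferases. It was -0.09 for the respiratory chain, -0.10 for mitochondrial ribosomal proteins, -0.13 for heat shock proteins and -0.09 for NRF2 targets. The sign was that over all arrays in each of these lists. For the histones it was -0.01, and for chemokines -0.06, of the opposite sign.
The large and small protein lists gave 0.26 and -0.08. On the large minus small contrast replicate 8 read -3.89, with the high-class arrays of hairpin #2 and control, so that the contrast was as large within the low class as across it. Among single genes, the difference of hairpin #1 from replicate 8 was 0.78 for KMT2D, -0.72 for AK1, 0.63 for IFI44 and 0.52 for ACTA2. For SLC50A1 it was -0.44 against -0.91 from replicates 7 and 9, and for GPX1 -0.34 against -0.77. This within-class value rests on 1 array of hairpin #2 and has no replicate. With values below the negative controls raised to them, medians were 0.1094 for the interferon list, 0.0860 for the contractile list, 0.0064 for nucleic acid sensing and 0.1131 for very large proteins.

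**Figure D5:**
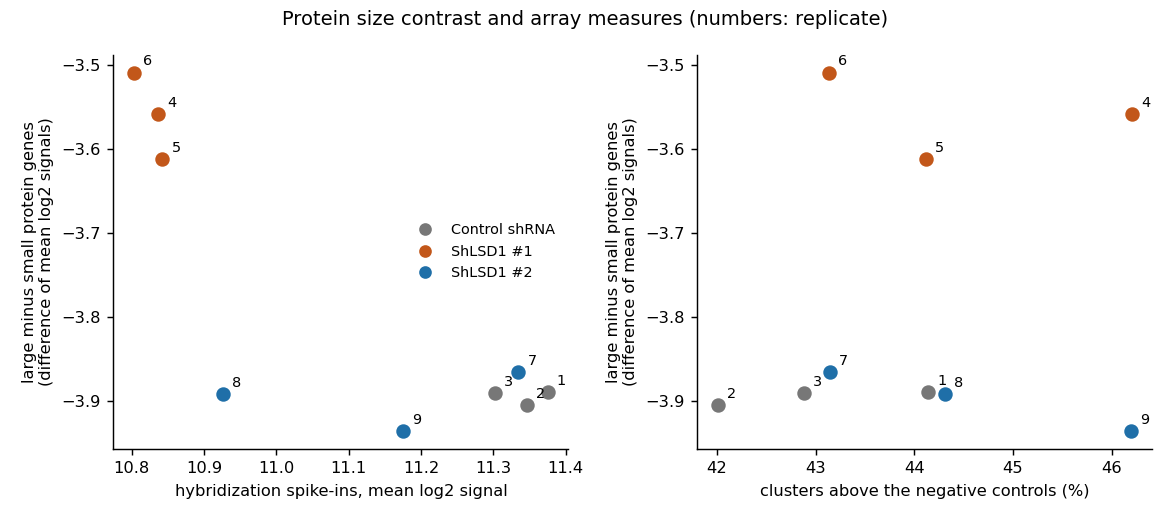
Mean log2 signal of genes of very large proteins minus that of very small proteins (y axis) against the mean log2 signal of the hybridization spike-ins (left x axis) and the share of clusters above the negative controls (right x axis, percent), for 9 arrays numbered by replicate. Hairpin #1 arrays lie at -3.61 to -3.51 and all others, replicate 8 included, at -3.93 to -3.87.

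Distance from control leaned slightly to hairpin #1 over all called clusters but not among those that fell most. Of 1985 clusters above control for the mean of the hairpins (limma, adjusted p under 0.05; 9.25% of those tested), 1106 (55.7%) lay further from control with hairpin #1. Of 1927 clusters below control (8.98%), 1121 (58.2%) did. Among those changed at least 2-fold the shares were 52.1% of 315 and 47.6% of 418. In this last set, 49 clusters lay further down with hairpin #2 without overlap and 28 with hairpin #1. The choice of clusters uses the same hairpin arrays, so these shares are a description. With spike-in class as a block, fewer clusters passed, 391 further with hairpin #1 and 205 with hairpin #2 above control, and 335 and 294 below. That block can be estimated from the hairpin #2 arrays alone, so the comparison with control is less precise and fewer clusters can pass. Without control replicate 2, 697 above control lay further with hairpin #1.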

How the data were processed

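The deposited values are log2 signals of 9 Clariom S arrays, made by the authors with RMA, the robust multi-array average, as run in Affymetrix Expression Console 1.4, per the submitters' processing notes. RMA by its usual definition brings all arrays to a common distribution, so a value is relative to the other genes of its array. Base 2 of the logarithm was assumed from the software default. Of 24351 probe sets, 2903 control probe sets were set aside and 21448 clusters were tested without a filter; 3739 (17.4%) had no symbol. Where a gene had more than 1 cluster (20 genes), lists used that with the highest mean signal.

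The hairpin difference was a contrast in 1 limma fit (3.58.1, R 4.3.3) of the 3 groups of 3 arrays, with two-sided moderated p-values adjusted by Benjamini-Hochberg over all clusters at 0.05. The script was tested on simulated data, with 4 false calls. A gene counts as above the negative controls where it exceeded the 95th percentile of 612 negative control probe sets on all 3 arrays of at least 1 hairpin. Tables used Python 3.11.15 and pandas 2.3.3.

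The comparison, the 53 function lists and the 20 families by symbol were chosen with earlier results of these data known. The genes named were the 12 highest and 12 lowest differences without overlap above the negative controls, up to 4 members of each of the 6 lists with the highest and 6 with the lowest medians, the genes called with the trended robust prior, and 12 fixed genes. Other genes were named after their values were seen: the single exceptions SMTN, IDH2 and GOLGA4, the neighbours of DPM3, and marker genes. Alternatives were other normalizations, filters, a floor, other priors, array weights, spike-in class or signal, the share above the negative controls, and leaving out each array.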

Additional observations from a re-analysis of the deposited data

Results flagged for a closer look

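For 5 of the 93 genes named by rule, the hairpins lay on opposite sides of control on every array, and this opposition was not tested. Among all 17687 named genes on the array it held for 34, 17 in each direction. KMT2D, the histone methyltransferase, differed by 0.7873 between the hairpins, with 0.21 above control for hairpin #1 and -0.58 for hairpin #2, although the highest control array came within 0.01 of the lowest hairpin #1 array. AK1, the adenylate kinase, differed by -0.7433, at -0.55 and 0.20 from control. PXN, paxillin, differed by 0.3831, at 0.18 and -0.20 from control. DYNC1H1, the dynein heavy chain, differed by 0.5530, at 0.22 and -0.33. NFIC, the transcription factor, differed by 0.5246, at 0.26 and -0.27. The comparisons with control share the 3 control arrays, and groups of 3 arrays were not searched for single outlying arrays.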

How the results depend on the processing

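Of the differences of 93 genes named by rule, 2004 of 2044 alternative values kept their direction and their side of the adjusted threshold. The exceptions were 35 genes called with the trended robust prior and sign turns of 3 genes near 0: SNAI2 (-0.0369) and MX1 (-0.1339) with the spike-in signal as a covariate, and, with 1 array left out, SNAI2 (-0.0138 to 0.0783), MX1 (-0.0262 to 0.2240) and ZEB1 (-0.0068 to 0.1125). The limma fit with the trended robust prior called 42 clusters and every other setting 0. Much of the count of 2004 was therefore fixed in advance. Leaving out a control array, using only the hairpin arrays or changing the prior cannot alter the difference. A gene chosen for arrays without overlap cannot change sign when 1 array is left out. Clusters without overlap numbered 1409 and 1454 toward hairpins #1 and #2, 843 and 960 when only clusters above the negative controls entered, and 845 and 964 with values raised to them; fewer clusters can then differ. These counts were not made for left-out arrays, weights or covariates.

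With values raised to the negative controls, list medians were 0.1094 (interferon response), 0.0860 (contractile), 0.0064 (nucleic acid sensing), 0.1131 (very large proteins) and 0.0000 (chemokines, ERK feedback and microRNA genes). With only clusters above the negative controls they were -0.0089 (chemokines), 0.0586 (ERK feedback) and 0.2618 (very large proteins). With spike-in class as a block they were -0.0072 (histones), -0.0595 (chemokines), -0.0367 (late cornified envelope), 0.0538 (microRNA genes) and 0.2645 (very large proteins). In this layout the block leaves hairpin #1 minus replicate 8, so these repeat the values from that 1 array and are not a separate check. With the spike-in signal as a covariate they were -0.0011 (histones), 0.0262 (chemokines), 0.0793 (microRNA genes) and 0.2560 (very large proteins). Very large proteins gave 0.2038 with array medians subtracted and 0.2522 without the clusters of lowest mean signal. Leaving out 1 array gave 0.1483 to 0.2739 (interferon), 0.0453 to 0.1831 (nucleic acid sensing), 0.0816 to 0.1984 (ERK feedback), 0.2087 to 0.2439 (very large proteins) and -0.1452 to -0.0444 (microRNA genes). The cause of these shifts was not tested.

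Counts further from control were lower under some settings, and the cause was not tested. Above control, hairpins #1 and #2 had 391 and 205 with the spike-in class block and 129 and 66 with the spike-in covariate; below control, 335 and 294, and 152 and 123. Above control, hairpin #1 had 698 with the share above the negative controls as a covariate, and 697 (without control replicate 2) to 1080 when 1 array was left out. Signal over background limits lists with few detected members, such as chemokines (9 of 31). No paired analysis was possible because the groups share no replicate number.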
